A study of Mus musculus with 24 samples.

Results

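WNT ligands, their Frizzled receptors and the secreted inhibitors of the SFRP and DKK families were examined in whole mouse lung after 2 days of low or normal oxygen, with or without the drug ABT-263. The members are the protein-coding genes of the deposited table whose symbols are Wnt, Fzd, Sfrp or Dkk followed by their family number. They are 37 of 54532 genes: 19 WNT ligands, 10 Frizzled receptors, 4 SFRP inhibitors and 4 DKK inhibitors. Of these, 25 had enough counts to be tested and 12 were too low to judge. All mice were young males of the strain C57BL6/j, and the lungs fell into 4 groups of 6 libraries each: normoxia with vehicle (the control), normoxia with ABT-263, hypoxia with vehicle, and hypoxia with ABT-263. ABT-263 (navitoclax) blocks anti-apoptotic proteins of the BCL-2 family and is used as a senolytic, an agent meant to clear senescent cells; it was given at 50 mg/kg/day for the 2 days. The labels do not give the oxygen fraction in hypoxia and number no animals, so p-values here measure the spread between libraries, which may be partly technical.

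WNT proteins are secreted, lipid-modified signals that act over short distances. In the canonical branch a WNT joins a Frizzled receptor to the co-receptor LRP5 or LRP6, which protects beta-catenin from destruction so that it can act with TCF/LEF factors on target genes such as Axin2; in the non-canonical branches Frizzled acts without beta-catenin on cell polarity, movement and calcium. SFRP proteins carry a domain like the ligand-binding part of Frizzled and bind WNTs outside the cell, whereas the classical DKK proteins bind LRP5 and LRP6. In the lung, WNT signals are known for setting up the organ in the embryo, for keeping alveolar type 2 cells able to renew, and for roles in the vessel wall and in fibrosis.

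Each library held between 12643500 and 17295200 expected counts. The median correlation of each library with the others of its group lay between 0.973 and 0.986 on the log2 scale. Levels are counts scaled to a common library size of 1e+06 (CPM), and levels are compared between genes only after division by exon length (CPM per kb). Haemoglobin transcripts took 0.260% to 0.824% of the counts in normoxia and 0.934% to 2.76% in hypoxia. Defining markers of fibroblasts, smooth muscle, pericytes, endothelium, alveolar epithelium and blood cells were all detected. In such a mixed tissue, fewer cells of a type and less RNA per cell cannot be told apart.

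Of the members called in both hypoxia comparisons, Sfrp1 had no promoter entry. The promoters of the others, Wnt11 and Wnt3a, which moved in opposite directions, are shown as the 250 bases before the annotated start, from RefSeq on GRCm38.p6. They were searched on both strands for the core of the hypoxia-inducible factor (HIF) site, ACGTG or GCGTG, and for the TCF/LEF words CTTTGAT and CTTTGTT. Capitals mark the matches, as they read on the printed strand.
Wnt11, first start, chr7:98834862-98835111, plus strand: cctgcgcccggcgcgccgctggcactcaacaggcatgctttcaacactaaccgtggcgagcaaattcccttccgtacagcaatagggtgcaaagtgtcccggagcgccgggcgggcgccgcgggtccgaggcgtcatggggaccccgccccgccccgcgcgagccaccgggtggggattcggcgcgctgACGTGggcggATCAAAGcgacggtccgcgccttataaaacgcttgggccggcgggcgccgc
Wnt11, second start, chr7:98838595-98838844, plus strand: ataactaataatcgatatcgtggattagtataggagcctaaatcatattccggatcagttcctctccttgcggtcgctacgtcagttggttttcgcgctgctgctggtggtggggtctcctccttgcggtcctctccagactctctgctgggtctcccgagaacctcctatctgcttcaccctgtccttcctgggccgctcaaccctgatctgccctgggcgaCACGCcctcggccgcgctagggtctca
Wnt3a, chr11:59290752-59291001, minus strand: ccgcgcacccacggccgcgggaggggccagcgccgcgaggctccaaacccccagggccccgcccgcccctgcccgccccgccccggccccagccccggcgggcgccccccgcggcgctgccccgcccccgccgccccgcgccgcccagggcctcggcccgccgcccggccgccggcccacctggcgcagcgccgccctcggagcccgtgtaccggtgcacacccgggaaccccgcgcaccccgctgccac
The first Wnt11 promoter held ACGTG from 61 to 57 bases before the start and ATCAAAG, the reverse complement of CTTTGAT, from 51 to 45 bases before it. The second held CACGC, the reverse complement of GCGTG, from 27 to 23 bases before the start. The Wnt3a promoter held 0 matches to either motif. Promoter entries were found for 25 members, 16 of them tested, with 28 promoters in all. Of the 28, 16 (57.1%) held the HIF core, against 38.6% of all 32851 promoters, and 4 (14.3%) held a TCF/LEF word, against 8.06%. These shares are not matched for base composition, and a match to so short a word is a description of the letters only.

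In normoxia with vehicle the inhibitor Dkk3 stood highest of the members per unit of length. Its mean was 20.8 CPM per kb (range of 6 libraries 18.9 to 23.97). Dkk3 is a divergent DKK that is not thought to act through LRP6 as Dkk1 does. It was followed by Fzd4, a receptor of WNTs and of the vascular ligand Norrin, at 12.2 CPM per kb (10.8 to 13.9). Below it came Wnt2, a ligand of lung mesenchyme that helps to specify the lung in the embryo, at 8.20 (4.94 to 12.4), and Wnt10b, known for holding back fat cell formation, at 7.96 (7.02 to 8.72). Next were the related receptors Fzd7 at 6.67 and Fzd1 at 6.54 CPM per kb, and then Sfrp2 at 5.26. The tested members with the lowest levels were Dkk2 at 0.427 and Sfrp4 at 0.389 CPM per kb.

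Most neighbours in this order could not be separated. The ranges of adjacent members overlapped everywhere except between Dkk3 and Fzd4, between Fzd8 and Fzd3, and between Wnt5b and Fzd6. The spread within a member varied greatly: over all 24 libraries the highest level of Sfrp2 was 12.0 times the lowest (1.99 to 23.8 CPM), and that of Fzd3 was 1.37 times the lowest (13.1 to 18.0 CPM). Sfrp2, a WNT antagonist of mesenchymal cells, spread in every group, from 2.97 to 23.8 CPM in normoxia with vehicle and from 3.27 to 13.7 CPM in hypoxia with ABT-263.

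**Figure D1:**
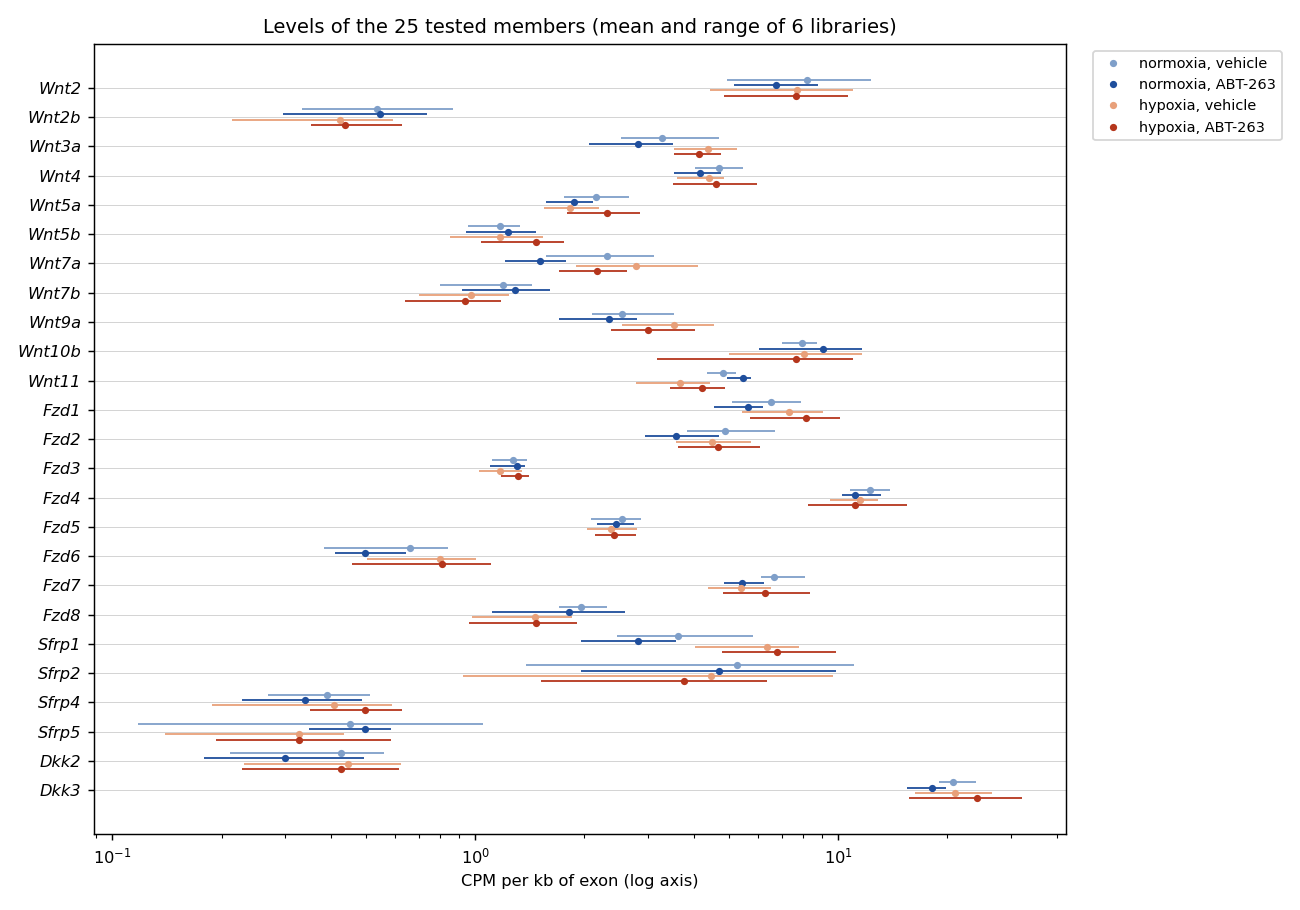
Level of the 25 tested members in CPM per kb of exon on a log axis; points are group means and lines the range of the 6 libraries of a group. Dkk3 and Fzd4 stand at the top with means of 20.8 and 12.2 CPM per kb in normoxia with vehicle, Sfrp1 shifts to the right in both hypoxia groups, and Sfrp2 and Sfrp5 have wide ranges.

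Members too low to judge were 8 ligands, 2 receptors and 2 inhibitors. Wnt1, the founding ligand of the family, had 0 counts in all 24 libraries, which allows a level of up to 0.00828 CPM over them by counting error (3 counts of the total). Summed over the 24 libraries, Wnt8a had 5 counts, Wnt8b 7, Wnt10a 8, Wnt16 11, Wnt3 36, Wnt6 62 and Wnt9b 80. Fzd9 had 27 and Fzd10 50, and the classical inhibitors Dkk1 and Dkk4 had 38 and 4. When the filter on low counts was dropped, Wnt9b alone of the 11 with a count passed in any comparison, higher in hypoxia under ABT-263 (log2 fold change 1.37, SE 0.49, adjusted p = 0.0452 by edgeR), on 39 counts in that group against 15 in normoxia with ABT-263.

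The effect of hypoxia under vehicle was asked first. Sfrp1 rose 1.75-fold, the ligands Wnt3a and Wnt9a rose 1.34-fold and 1.38-fold, and the ligand Wnt11 and the receptor Fzd7 fell 1.31-fold and 1.24-fold. These are 5 of 25 tested members, 3 upward and 2 downward, at an adjusted p under 0.05 by edgeR's quasi-likelihood test with Benjamini-Hochberg adjustment over all genes. Among all 16935 genes tested 35.7% were called, beside 20% of the members; 18.9% of all genes were called higher and 16.8% lower. The median log2 fold change was -0.09 over the members and -0.04 over all genes. No member had libraries of the groups that did not overlap, whereas 17.8% of all genes did.

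Under ABT-263 hypoxia came with more members called, mostly upward. Sfrp1 rose 2.41-fold, Fzd6 1.63-fold, Wnt3a 1.47-fold, Fzd1 1.45-fold, Wnt7a 1.44-fold, Dkk3 1.33-fold, Fzd2 1.31-fold and Wnt5a 1.23-fold, and Wnt11 fell 1.30-fold. These 9 of 25 members, 8 upward and 1 downward, stand beside 41% of all genes called, which is near the members' share. Called upward were 21.6% of all genes, and called downward 19.4%. Without normoxia with ABT-263 replicate 3, the upward calls of Wnt3a, Fzd6, Sfrp1 and Fzd1 were left, and Sfrp4 was gained. Of the upward calls 5 were left without hypoxia with ABT-263 replicate 1 or 4, and 4 without replicate 6 of that group. Replicates 1 and 6 of that group had 2.09% and 2.38% of their counts in mitochondrially encoded genes, against 3.43% to 4.90% in its other 4 libraries; the part of this in the calls was not tested. The median log2 fold change was 0.21 over the members and -0.02 over all genes. For 3 members (Sfrp1, Wnt3a and Wnt11) the libraries of the groups did not overlap, as for 14.6% of all genes. The interaction, which tests whether the response to hypoxia differed between drug and vehicle, called 0 members and 0 genes, so the larger count under ABT-263 is not shown to be a difference in response.

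**Figure D2:**
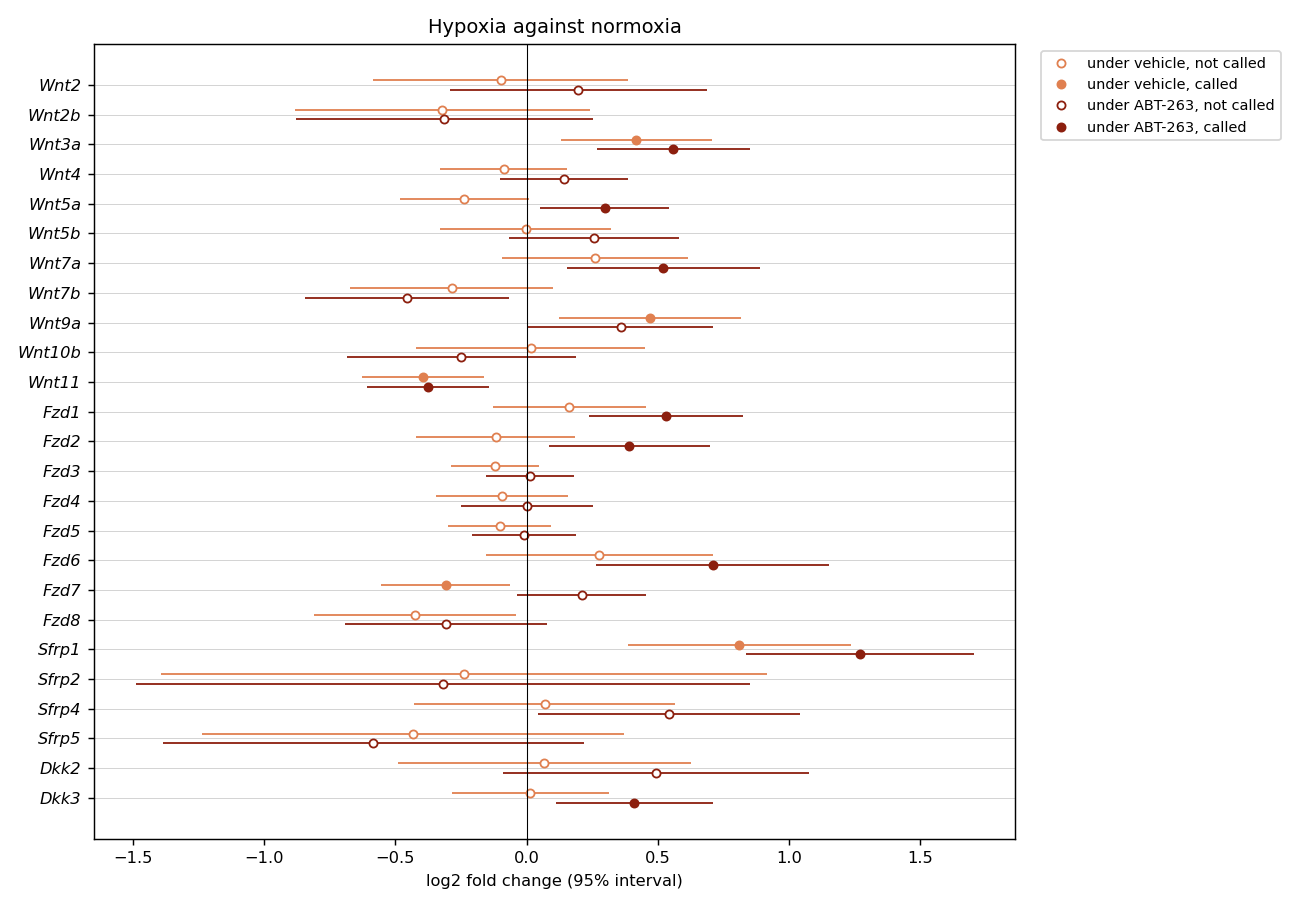
Log2 fold change of hypoxia against normoxia for the 25 tested members, with 95% intervals, under vehicle and under ABT-263; filled points passed an adjusted p of 0.05. Sfrp1 lies farthest to the right in both comparisons (0.81 and 1.27), Wnt3a is called upward and Wnt11 downward in both, and the other called members passed in 1 of the comparisons.

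Among the inhibitors, Sfrp1 on chromosome 8 (GRCm38, 23411502 to 23449632, plus strand) moved most. SFRP1 is made by mesenchymal cells and binds WNTs outside the cell. Its 6 libraries ran from 10.7 to 25.5 CPM (median 14.7) in normoxia with vehicle and from 17.6 to 34.1 CPM (median 29.4) in hypoxia with vehicle. The groups overlapped, since the highest normoxia library stood above the lowest hypoxia library. The log2 fold change was 0.81 (SE 0.20, adjusted p = 0.00304). With ABT-263 its libraries ran from 8.57 to 15.6 CPM (median 12.7) in normoxia and from 21.0 to 43.0 CPM (median 29.4) in hypoxia. Every hypoxia library then stood above every normoxia library, with a log2 fold change of 1.27 (SE 0.21, adjusted p = 4.22e-05). Both calls held in all 24 fits that left out 1 library.

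The other SFRP genes were not called. Sfrp4, a relative studied in bone and fat, had log2 fold changes of 0.07 (SE 0.24) under vehicle and 0.54 (SE 0.24, adjusted p = 0.0711) under ABT-263. Sfrp5, an inhibitor also secreted by fat tissue, had -0.43 (SE 0.39) and -0.58 (SE 0.38). The 95% interval of Sfrp2 ran from -1.39 to 0.92 under vehicle and from -1.49 to 0.85 under ABT-263. The first interval holds a rise as large as the 0.81 of Sfrp1, and the second ends below the 1.27 of Sfrp1. Exons of Sfrp2 overlap Gm26771 on the opposite strand over 347 bases.

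Dkk3 had a log2 fold change of 0.01 (SE 0.14) under vehicle and rose by 0.41 (SE 0.14, adjusted p = 0.0253) under ABT-263. Its libraries ran from 52.0 to 66.7 CPM (median 62.1) in normoxia with ABT-263 and from 52.8 to 108 CPM (median 80.5) in hypoxia with ABT-263, and they overlapped. The call was lost without normoxia with ABT-263 replicate 3 or hypoxia with ABT-263 replicates 1, 4 or 6 (adjusted p up to 0.0870), and also with no filter on low counts (adjusted p = 0.0556). Dkk2, which binds LRP6 and can act either way on the pathway, had 0.07 (SE 0.27) and 0.49 (SE 0.28, adjusted p = 0.161).

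Of the ligands, Wnt3a, a strong activator of the canonical branch, rose in both hypoxia comparisons. It lies on chromosome 11 (GRCm38, 59248033 to 59290752, minus strand), next to Wnt9a (59306928 to 59333552, plus strand). Its libraries ran from 6.97 to 12.9 CPM (median 8.42) in normoxia with vehicle and from 9.77 to 14.6 CPM (median 12.0) in hypoxia with vehicle. The overlap came from the upper normoxia libraries, and the log2 fold change was 0.42 (SE 0.14, adjusted p = 0.0193). Without normoxia with vehicle replicate 3 or 6, or hypoxia with vehicle replicate 4, the adjusted p rose to between 0.0502 and 0.0559. With ABT-263 Wnt3a ran from 5.68 to 9.67 CPM (median 7.74) in normoxia and from 9.77 to 13.1 CPM (median 11.4) in hypoxia. Those groups did not overlap, and the log2 fold change of 0.56 (SE 0.14, adjusted p = 0.00255) held in all 24 fits without 1 library.

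Wnt9a, known for its part in joint formation, had libraries from 6.97 to 11.7 CPM (median 8.09) in normoxia with vehicle and from 8.45 to 15.1 CPM (median 11.6) in hypoxia with vehicle. Its log2 fold change was 0.47 (SE 0.17, adjusted p = 0.0298), and the groups overlapped. The call was lost without any 1 of normoxia with vehicle replicates 3, 5 and 6 and hypoxia with vehicle replicates 3, 4 and 6 (adjusted p up to 0.0872). Under ABT-263 the log2 fold change was 0.36 (SE 0.17, adjusted p = 0.0900).

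Wnt11, a ligand of the non-canonical branch that takes part in kidney branching and heart development, fell in both hypoxia comparisons. It lies on chromosome 7 (GRCm38, 98835112 to 98855195, plus strand). Its libraries ran from 18.0 to 21.6 CPM (median 20.2) in normoxia with vehicle and from 11.5 to 18.3 CPM (median 15.8) in hypoxia with vehicle. The groups just overlapped, and the log2 fold change was -0.39 (SE 0.11, adjusted p = 0.00730). With ABT-263 the libraries ran from 20.4 to 23.8 CPM (median 23.1) in normoxia and from 14.2 to 20.2 CPM (median 17.4) in hypoxia. Every hypoxia library stood below every normoxia library there, with a log2 fold change of -0.38 (SE 0.11, adjusted p = 0.00890). Both calls held in all 24 fits without 1 library. Exons of Wnt11 overlap a gene on the opposite strand, Gm8398, over 364 bases; since the strand setting of the counting is not given in the sources used here, the reads of the pair cannot be told apart there.

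**Figure D3:**
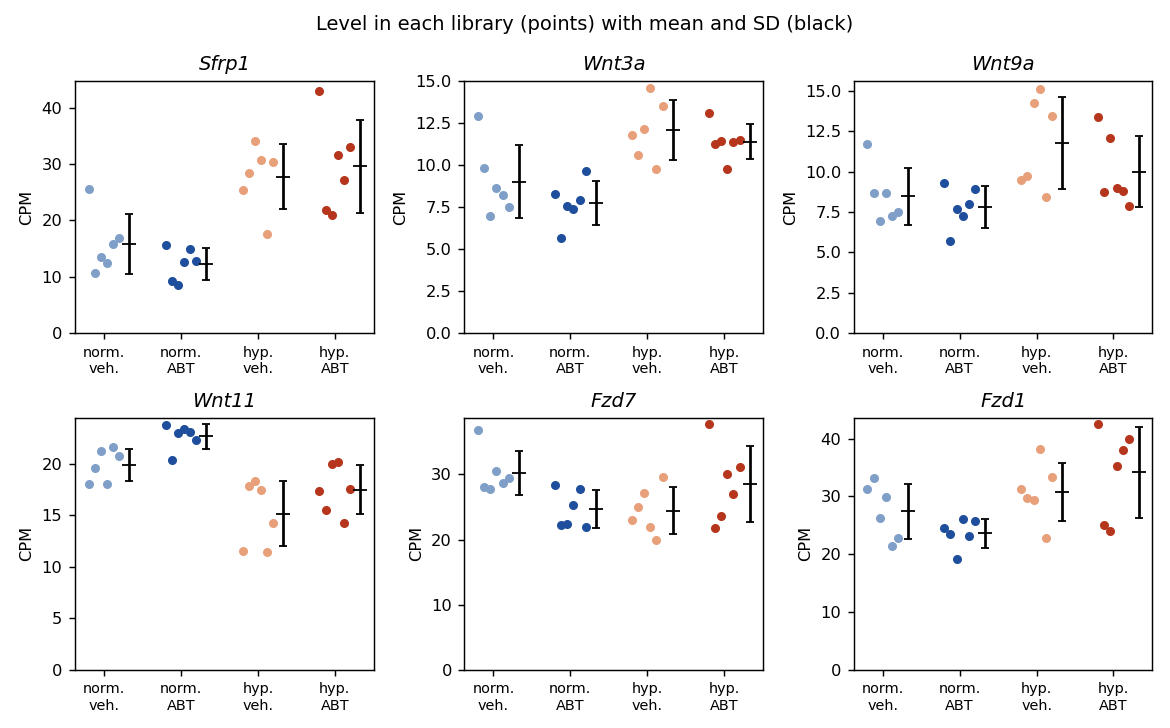
CPM of Sfrp1, Wnt3a, Wnt9a, Wnt11, Fzd7 and Fzd1 in each library (points) with the mean and SD of the 6 libraries of a group (black), for normoxia (norm.) and hypoxia (hyp.) with vehicle (veh.) or ABT-263 (ABT). Under ABT-263 the hypoxia libraries of Sfrp1 (21.0 to 43.0 CPM) and Wnt3a (9.77 to 13.1 CPM) all stand above those in normoxia and those of Wnt11 (14.2 to 20.2 CPM) all stand below; under vehicle the ranges overlap.

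The remaining called ligands passed under ABT-263 and not under vehicle. Wnt7a, which acts in female tract and nervous system development, ran from 3.82 to 5.64 CPM (median 4.84) in normoxia and from 5.39 to 8.31 CPM (median 6.90) in hypoxia with the drug. Its log2 fold change was 0.52 (SE 0.18, adjusted p = 0.0211), and it was lost without normoxia with ABT-263 replicate 3 or hypoxia with ABT-263 replicate 6 (adjusted p up to 0.0545). Under vehicle it was 0.26 (SE 0.17, adjusted p = 0.241). Wnt5a, the main non-canonical ligand of the developing distal lung, ran from 12.3 to 16.5 CPM (median 14.4) and from 14.0 to 22.3 CPM (median 17.6) in the same groups. Its log2 fold change was 0.30 (SE 0.12, adjusted p = 0.0447) under ABT-263 and -0.24 (SE 0.12, adjusted p = 0.117) under vehicle. The Wnt5a call was not stable: it failed with limma-voom, with the other size factors, without the filter, and in 9 of the 24 fits without 1 library (adjusted p up to 0.142, the highest without hypoxia with ABT-263 replicate 4). The libraries that ended it were normoxia with ABT-263 replicates 2, 3, 4 and 6, hypoxia with vehicle replicate 3, and hypoxia with ABT-263 replicates 1, 4, 5 and 6. Exons of Wnt5a overlap Gm2670 on the opposite strand over 358 bases.

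Ligands that passed in no comparison included the most abundant ones. Wnt2 had a log2 fold change of -0.10 (95% interval -0.58 to 0.39) under vehicle and 0.20 (-0.29 to 0.69) under ABT-263. Wnt10b had 0.02 (-0.42 to 0.45) and -0.25 (-0.69 to 0.19). For Wnt4, a ligand of mesenchyme needed for kidney formation, the intervals were narrower, from -0.33 to 0.15 and from -0.10 to 0.39. Wnt7b, a ligand of airway and alveolar epithelium that the embryonic lung needs for its growth, had -0.29 (SE 0.19, adjusted p = 0.237) and -0.46 (SE 0.19, adjusted p = 0.0520). The latter value passed with DESeq2, with RLE size factors and with the first within-group component as a covariate (adjusted p down to 0.0235). By edgeR it also passed in 8 of the 24 fits without 1 library, where the adjusted p ran from 0.0285 to 0.128. Exons of Wnt7b overlap AU022754 on the opposite strand over 324 bases. Wnt2b, a close relative of Wnt2, had -0.32 and -0.31 (SE 0.27 each), and Wnt5b, a close relative of Wnt5a, had 0.00 and 0.26 (SE 0.16 each).

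Among the receptors Fzd1, Fzd2 and Fzd7 form a related group that couples to canonical and non-canonical signals. Fzd1 ran from 19.1 to 26.1 CPM (median 23.95) in normoxia with ABT-263 and from 23.97 to 42.4 CPM (median 36.6) in hypoxia with ABT-263. The overlap was small, and the log2 fold change of 0.53 (SE 0.14, adjusted p = 0.00415) held in all 24 fits without 1 library; under vehicle it was 0.16 (SE 0.14, adjusted p = 0.381). Fzd2 ran from 10.7 to 17.3 CPM (median 12.5) and from 13.2 to 22.4 CPM (median 15.9) in the same groups, a log2 fold change of 0.39 (SE 0.15, adjusted p = 0.0362). That call was lost in 7 of the 24 fits (adjusted p up to 0.111), those without normoxia with ABT-263 replicates 2, 3, 4 or 6 or hypoxia with ABT-263 replicates 1, 4 or 6. It was also lost with no filter on low counts (adjusted p = 0.0518). Under vehicle Fzd2 had -0.12 (SE 0.15).

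Fzd7 fell under vehicle, from 27.8 to 36.8 CPM (median 29.0) in normoxia to 19.9 to 29.7 CPM (median 24.03) in hypoxia. The log2 fold change of -0.31 (SE 0.12, adjusted p = 0.0431) was lost in 10 of the 24 fits without 1 library, with adjusted p up to 0.117 in the fit without normoxia with vehicle replicate 1. The others were those without normoxia with vehicle replicates 4, 5 or 6, hypoxia with vehicle replicates 1, 2, 4 or 5, normoxia with ABT-263 replicate 1 or hypoxia with ABT-263 replicate 4. Under ABT-263 Fzd7 had a log2 fold change of 0.21 (SE 0.12, adjusted p = 0.157).

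Fzd6, a receptor of planar polarity, was a member of low level that rose under ABT-263. It ran from 1.98 to 3.10 CPM (median 2.37) in normoxia and from 2.20 to 5.33 CPM (median 3.88) in hypoxia with the drug, and the groups overlapped. The log2 fold change of 0.71 (SE 0.21, adjusted p = 0.0101) held in all 24 fits without 1 library; under vehicle it was 0.28 (SE 0.21, adjusted p = 0.308). Its exons overlap Gm26704 on the opposite strand over 152 bases. The other polarity receptor, Fzd3, had -0.12 and 0.01 (SE 0.08 each).

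Fzd4, the most abundant receptor per length, had a log2 fold change of -0.09 (95% interval -0.34 to 0.16) under vehicle and 0.00 (-0.25 to 0.25) under ABT-263. Fzd5, whose gene overlaps Gm38058 on the opposite strand over 1233 bases, had -0.10 (-0.30 to 0.09) and -0.01 (-0.21 to 0.19). Its relative Fzd8 had -0.43 (SE 0.18, adjusted p = 0.0735) and -0.31 (SE 0.18, adjusted p = 0.188). The Fzd8 value under vehicle passed with only the groups compared in the fit and with the first within-group component as a covariate (adjusted p down to 0.00608). By edgeR it also passed in 1 of the 24 fits without 1 library, that without hypoxia with vehicle replicate 3 (adjusted p = 0.0497).

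Markers of other cells were called with hypoxia as well, beside 35.7% of all genes under vehicle and 41% under ABT-263. In either direction, the counts of the endothelial and adventitial fibroblast lists lay near or under these shares. Called higher were 18.9% and 21.6% of all genes, and called lower 16.8% and 19.4%. Of 8 smooth muscle and myofibroblast markers 5 rose and 0 fell in each hypoxia comparison; their summed level ran from 753 to 947 CPM in normoxia with vehicle and from 1788 to 2484 CPM in hypoxia with vehicle. With ABT-263 the sums ran from 784 to 1052 CPM and from 1902 to 2971 CPM. Of 7 pericyte markers 4 rose under vehicle (sums 350 to 511.6 against 526.5 to 802 CPM) and 5 under ABT-263 (374 to 477 against 573 to 831 CPM). Adventitial fibroblast markers, 8 in all, showed 0 rises and 2 falls under vehicle and 2 rises and 0 falls under ABT-263. Alveolar fibroblast markers, also 8, showed 0 rises and 2 falls under vehicle and 3 rises and 2 falls under ABT-263. Of 8 endothelial markers 3 fell under vehicle and 2 under ABT-263, with 0 rises. No marker on these lists was at 0 in any group.

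Epithelial and cycling markers stand beside the same shares of all genes. Of 8 alveolar type 2 markers 0 rose and 2 fell under vehicle (sums 26550 to 35591 against 22542 to 39860 CPM). Under ABT-263 0 rose and 0 fell (24923 to 33982 against 28478.5 to 38700 CPM). Of 8 alveolar type 1 markers 4 rose and 0 fell under vehicle (sums 4043 to 5562 against 4137 to 7125 CPM), and 5 rose and 1 fell under ABT-263 (3742 to 5124 against 4288 to 6105 CPM). Of 8 club and ciliated cell markers 5 fell and 0 rose in each comparison, with sums of 91506 to 115684 against 51625 to 98663 CPM under vehicle and 73252 to 140878 against 55058 to 92157 CPM under ABT-263. Of 6 cycling markers 5 rose and 0 fell in each, with sums of 23.0 to 45.1 against 71.9 to 112 CPM and 34.3 to 71.3 against 55.6 to 146 CPM. The part of all these cells in the values of the ligands, receptors and inhibitors was not tested.

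The effect of ABT-263 was then asked at each oxygen level, and 0 of 25 members passed in either. In normoxia 0.0413% of all genes (7) were called, 0.0354% higher and 0.0059% lower, and in hypoxia 0%. In 0 members did the libraries of the drug and vehicle groups not overlap, against 0.49% of all genes in normoxia and 0.159% in hypoxia. In normoxia 1154 genes had an unadjusted p under 0.05 by edgeR, and DESeq2 called 30 genes. In hypoxia 543 genes had an unadjusted p under 0.05 by edgeR, and DESeq2 called 6 genes. None of these DESeq2 calls was a member. These comparisons share libraries with the hypoxia comparisons, so a low value in normoxia with ABT-263 enters both. At an unadjusted p under 0.05, 3 members were lower in normoxia: Wnt7a with a log2 fold change of -0.61 (95% interval -0.98 to -0.24, adjusted p = 0.297), Fzd2 with -0.45 (-0.75 to -0.14, adjusted p = 0.417) and Fzd7 with -0.29 (-0.54 to -0.05, adjusted p = 0.635).

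In hypoxia the 3 members at an unadjusted p under 0.05 were Wnt5a with 0.33 (95% interval 0.09 to 0.58), Wnt5b with 0.33 and Fzd3 with 0.17, and none passed after adjustment. Sfrp1 had -0.36 (-0.80 to 0.07) in normoxia and 0.10 (-0.32 to 0.51) in hypoxia, and Wnt11 had 0.19 (-0.04 to 0.42) and 0.21 (-0.03 to 0.44). Changes of the size of the interval bounds could therefore be present without a call. For the interaction 625 genes had an unadjusted p under 0.05, and DESeq2 and limma-voom called 0 genes. Members under that unadjusted level were Wnt5a (0.54), Fzd7 (0.52) and Fzd2 (0.51), each with adjusted p = 0.991.

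**Figure D4:**
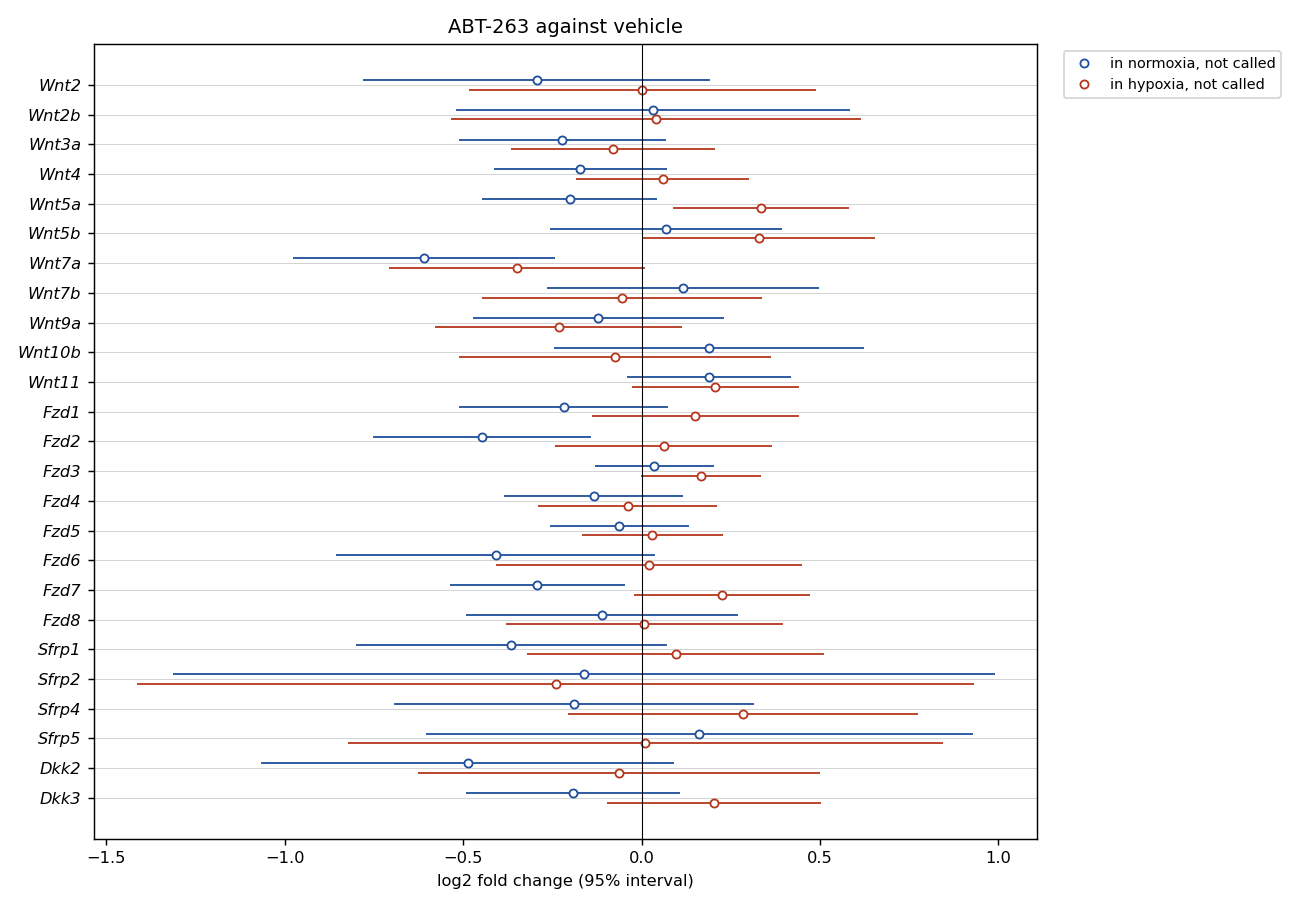
Log2 fold change of ABT-263 against vehicle for the 25 tested members, with 95% intervals, in normoxia and in hypoxia; 0 members passed an adjusted p of 0.05. Wnt7a (-0.61) and Fzd2 (-0.45) lie farthest to the left in normoxia among the members whose interval leaves out 0, and Sfrp2 has the widest intervals.

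The rest of the pathway was read from lists of 81 genes, of which 77 were tested. Under vehicle 8 rose and 25 fell with hypoxia, and under ABT-263 15 rose and 19 fell. The share called over all genes was 35.7% under vehicle, 18.9% higher and 16.8% lower. Under ABT-263 it was 41%, 21.6% higher and 19.4% lower. Among the 8 co-receptors and alternative receptors 1 rose and 1 fell under vehicle, and 3 rose under ABT-263. Ror2, a receptor of WNT5A outside the canonical branch, rose by 1.01 (SE 0.12, adjusted p = 9.25e-07) and 0.64 (SE 0.12, adjusted p = 0.000243) on the log2 scale. Its libraries ran from 1.73 to 2.62 CPM in normoxia with vehicle and from 3.50 to 4.75 CPM in hypoxia with vehicle, with no overlap. Lrp6 fell by 0.24 (SE 0.08, adjusted p = 0.0154) under vehicle, a call lost with no filter on low counts (adjusted p = 0.0821), and had -0.03 (SE 0.08) under ABT-263. Lrp5 was not called in either (-0.13 and 0.23, SE 0.14 each).

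Of 7 genes of ligand processing and secretion 3 rose and 1 fell in each hypoxia comparison. The shares of all genes were 18.9% and 21.6% called higher, and 16.8% and 19.4% called lower. Wls, the carrier that brings WNTs to the cell surface, rose by 0.34 (SE 0.08, adjusted p = 0.00221) and 0.52 (SE 0.08, adjusted p = 2.91e-05). Trabd2b, a membrane protease that cleaves WNTs, rose by 0.63 and 0.78, and Gpc4, a glypican that binds WNTs at the surface, by 0.42 and 0.65. Notum, which strips the lipid from WNTs, fell by 0.79 and by 0.80 (SE 0.20 each). Porcn, which adds that lipid, had 0.04 and -0.13 (SE 0.12 each) and was not called.

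R-spondins and their receptors raise Frizzled at the surface, and this list of 9 genes also holds Znrf3 and Rnf43, which act the other way. Of the 8 tested, 0 rose and 2 fell under vehicle and 1 rose and 2 fell under ABT-263. Beside them, 18.9% and 21.6% of all genes were called higher, and 16.8% and 19.4% lower. Lgr6, a receptor of R-spondins, fell by 0.84 and by 0.76 (SE 0.24 each). Rspo3 fell under vehicle by 0.63 (SE 0.23, adjusted p = 0.0327), a call lost in 7 of the 24 fits without 1 library (adjusted p up to 0.0793), which left out normoxia with vehicle replicates 1, 2 or 4 or hypoxia with vehicle replicates 1, 2, 3 or 5; it was also lost with no filter (adjusted p = 0.0810). Rspo4 rose under ABT-263 by 0.92 (SE 0.33, adjusted p = 0.0286), lost in 6 fits (adjusted p up to 0.0792), those without normoxia with ABT-263 replicates 3, 5 or 6 or hypoxia with ABT-263 replicates 1, 4 or 6. The Rspo4 call was also lost with no filter and with only the groups compared (adjusted p up to 0.0647).

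Of 9 tested genes listed as inhibitors outside the SFRP and DKK families 1 rose and 3 fell under vehicle. Under ABT-263 3 rose and 2 fell. The 1 that rose under vehicle was Cthrc1, which is not a plain inhibitor, and it also rose under ABT-263. For comparison, 18.9% and 21.6% of all genes were called higher, and 16.8% and 19.4% lower. Wif1, which binds WNTs outside the cell, fell by 0.76 and by 0.81 (SE 0.18 each, adjusted p = 0.00218 and 0.00118). Sost, an LRP5 and LRP6 antagonist best known from bone, fell by 3.42 (SE 0.79) and by 2.60 (SE 0.73) from a low level, 0.315 to 1.20 CPM in normoxia with vehicle. In hypoxia with ABT-263 its libraries ran from 0 to 0.569 CPM (median 0.0352), and without replicate 5 of that group the log2 fold change was -4.39. Cthrc1, a secreted protein that favours the polarity branch, rose by 1.06 (SE 0.24) and 0.99 (SE 0.23). Shisa2, which holds back Frizzled maturation in frog embryos, rose under ABT-263 by 0.83 (SE 0.18) and had -0.34 (SE 0.18) under vehicle. Draxin, a guidance factor that binds LRP6, fell under vehicle by 0.97 (SE 0.32), a call lost without normoxia with vehicle replicate 2 (adjusted p = 0.0551). Apcdd1, a membrane WNT inhibitor, rose under ABT-263 by 0.68 (SE 0.22), lost without hypoxia with ABT-263 replicate 1 (adjusted p = 0.0644). Frzb, also called Sfrp3, was too low to judge with 41 counts in all.

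In the cytoplasm 2 of 17 genes rose and 5 fell under vehicle, and 3 rose and 3 fell under ABT-263. Over all genes 18.9% and 21.6% were called higher, and 16.8% and 19.4% lower. Axin2, a feedback inhibitor and target of the canonical branch, ran from 17.1 to 24.8 CPM (median 21.7) in normoxia with vehicle and from 11.3 to 15.5 CPM (median 12.9) in hypoxia with vehicle. The groups did not overlap, and it fell by 0.68 (SE 0.12, adjusted p = 7.51e-05) on the log2 scale. Under ABT-263 its value was -0.24 (SE 0.12, adjusted p = 0.109). Ctnnbip1, which keeps beta-catenin from TCF factors, rose by 0.53 and 0.71 (SE 0.11 each), and Nkd2, a Dishevelled antagonist, by 0.51 and 0.54 (SE 0.14 each). Dvl3, a Dishevelled protein, fell under ABT-263 by 0.55 (SE 0.15). Ctnnb1, which encodes beta-catenin, had 0.00 (SE 0.08) under vehicle and 0.21 (SE 0.08, adjusted p = 0.0478) under ABT-263. That call was made in 6 of the 24 fits without 1 library, with adjusted p up to 0.108 in the fit without hypoxia with ABT-263 replicate 6, and was also lost with 3 other settings.

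Of the 12 nuclear factors 8 fell and 0 rose under vehicle, and 9 fell and 0 rose under ABT-263, where 16.8% and 19.4% of all genes were called lower. The medians of their log2 fold changes were -0.45 and -0.40. Lef1, a DNA-binding partner of beta-catenin, ran from 5.68 to 8.45 CPM (median 6.62) in normoxia with vehicle and from 2.24 to 3.9996 CPM (median 3.57) in hypoxia with vehicle, without overlap. It fell by 0.996 (SE 0.17, adjusted p = 7.34e-05), and under ABT-263 by 0.82 (SE 0.18, adjusted p = 0.000713). Tcf7, its relative, fell by 0.67 and by 0.44 (SE 0.13 each). Pygo1 and Bcl9, co-activators of beta-catenin, both fell by 0.58 under vehicle, and under ABT-263 by 0.56 and by 0.45. Tcf7l1, mostly a repressor, fell under vehicle by 0.56 (SE 0.15) and had -0.12 (SE 0.15) under ABT-263. Tle2, a co-repressor, fell under ABT-263 by 0.79 (SE 0.30, adjusted p = 0.0402), a call lost in 8 fits (adjusted p up to 0.0958), those without normoxia with ABT-263 replicates 1, 2, 3 or 6 or hypoxia with ABT-263 replicates 1, 4, 5 or 6. The Tle2 call was also lost with no filter and with only the groups compared (adjusted p up to 0.0886).

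**Figure D5:**
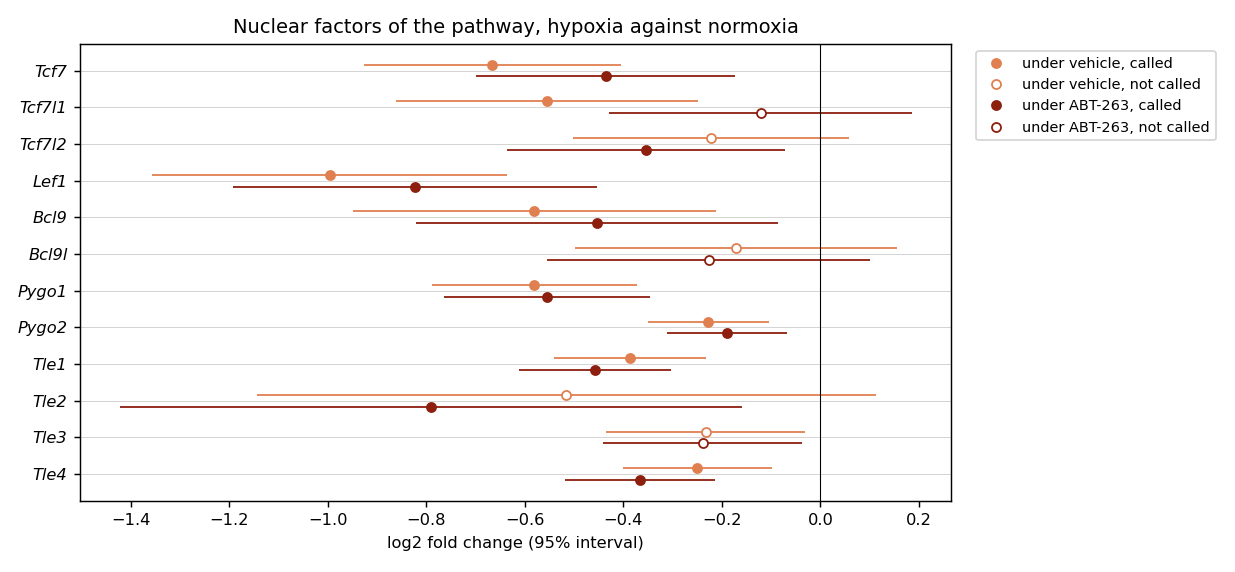
Log2 fold change of hypoxia against normoxia for the 12 nuclear factors of the pathway, with 95% intervals, under vehicle and under ABT-263; filled points passed an adjusted p of 0.05. All points lie to the left of 0, with Lef1 at -0.996 and -0.82.

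Lef1 and Tcf7 are also made by T cells, and T cell markers moved the same way. Of 7 tested T cell markers 6 fell under vehicle and 7 under ABT-263, and their summed level ran from 59.1 to 86.3 CPM in normoxia with vehicle and from 36.9 to 53.8 CPM in hypoxia with vehicle. With ABT-263 the sums ran from 50.1 to 136 CPM and from 19.1 to 49.6 CPM. The part of T cells in the values of Lef1 and Tcf7 was not tested. Of 15 canonical target genes, a list that shares Lef1, Tcf7, Axin2, Notum and others with the lists above, 0 rose and 5 fell under vehicle, and 2 rose and 4 fell under ABT-263. Of 10 tested polarity genes 1 rose and 4 fell under vehicle, and 1 rose and 2 fell under ABT-263. Beside the counts of these lists, 18.9% of all genes were called higher and 16.8% lower under vehicle. Under ABT-263 the shares were 21.6% and 19.4%. ABT-263 changed 0 of the 77 genes at either oxygen level, and 0 passed the interaction.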

How the data were processed

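Per the submitters' processing notes, reads were handled with Trimmomatic, STAR and RSEM on GRCm38; the sources used here give no version, annotation release or strand setting. Per the labels' protocols, libraries came from a stranded mRNA kit. The authors deposited expected counts per gene, 1 column per library and not normalized, and all 24 columns matched a library. Reads shared between genes are split by estimation in RSEM, and 91.8% of the values were whole.

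After rounding, edgeR 4.0.16 was run in R 4.3.3 (TMM, filterByExpr with a minimum count of 10, robust quasi-likelihood F test, 1 mean per group, 20 residual degrees of freedom). Benjamini-Hochberg adjustment covered all 16935 genes tested, at a threshold of 0.05. SE is the log2 fold change divided by the square root of F, and intervals are 95% on the 20 residual degrees of freedom. The test used more degrees of freedom, so an interval can hold 0 at an unadjusted p under 0.05. That was so for Fzd3 with ABT-263 against vehicle in hypoxia (-0.002 to 0.335). CPM are TMM-scaled to 1e+06, and exon lengths are from GENCODE for GRCm38. Totals of 12643500 to 17295200 leave counting error large below about 1 CPM; floors of 3 counts cover counting error only. Libraries of a group all differed by more than sampling noise (lowest chi-square per degree of freedom 6.95). Alternatives were DESeq2 1.42.0, limma-voom 3.58.1, RLE size factors, no filter, only the groups compared, leaving out each library, and, chosen after seeing the data, the first within-group component as a covariate. Scripts were tested on simulated data. Members and gene lists were chosen with earlier results of these data known. All members are reported; other pathway genes are named where called with an absolute log2 fold change of 0.5 or more, plus Axin2, Lef1, Ctnnb1, Lrp5, Lrp6, Wls, Porcn, Wif1 and Frzb; values of unnamed genes are left out.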

Additional observations from a re-analysis of the deposited data

Results flagged for a closer look

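Of 100 member and group pairs checked on log2 CPM, 3 held a library whose gap to its nearest neighbour took a larger share of the range of the 6 libraries than Dixon's 95% critical value allows; chance flags about 1 in 20 groups. Fzd3 in normoxia with ABT-263 had replicate 6 at 14.1 CPM, below the other libraries at 16.8 to 17.6. Wnt10b in hypoxia with ABT-263 had replicate 1 at 10.8 CPM, below the others at 24.01 to 37.4. Fzd7 in normoxia with vehicle had replicate 1 at 36.8 CPM, above the others at 27.8 to 30.6; without it the fall of Fzd7 in hypoxia under vehicle had an adjusted p of 0.117 by edgeR.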

How the results depend on the processing

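No paired analysis was possible because the labels give no replicate numbers shared between groups, and the numbers used here only name libraries. Among the counts of members and the fold changes rerun (those of genes called by some fit), 0 reversed; other values, many near 0, were not rerun. Under vehicle, members called lower in hypoxia went from 2 to 1 with RLE size factors and with no filter (Fzd7 lost), and to 3 with only the groups compared and with the component as a covariate (Fzd8 gained). Under ABT-263 they went from 1 to 2 with DESeq2, with RLE size factors and with the component as a covariate (Wnt7b gained), and members higher went from 8 to 11 with the covariate (Wnt9a, Sfrp4 and Fzd7 gained), to 7 with limma-voom and RLE (Wnt5a lost) and to 6 with no filter (Wnt5a, Dkk3 and Fzd2 lost, Wnt9b gained). With that covariate, which took 26.6% of the variance within groups, 2 members passed as lower under ABT-263 in normoxia (Wnt7a, adjusted p = 0.0447, and Fzd2, adjusted p = 0.0396), against 0 without it; the causes were not tested. Leaving out 1 library gave 1 to 3 members higher and 1 to 3 lower in hypoxia under vehicle, 4 to 9 higher and 1 to 2 lower under ABT-263, and 0 to 0 in the drug comparisons and the interaction. Under vehicle, 1 member was higher without normoxia with vehicle replicate 3 or 6 or hypoxia with vehicle replicate 4. Under ABT-263, 5 were higher without normoxia with ABT-263 replicate 3 or hypoxia with ABT-263 replicate 1 or 4, and 4 without hypoxia with ABT-263 replicate 6. Sfrp1 and Wnt11 in both hypoxia comparisons, and Wnt3a, Fzd1 and Fzd6 under ABT-263, were called in every alternative run. At this depth the 12 low members could not be judged.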

Other observations

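The first component of the deviations within groups moved some members more than others. Sfrp2 changed by -0.53 on the log2 scale per SD of that component, Wnt10b by 0.27, and Sfrp1 and Wnt2 by -0.26 each. The component is built from the same libraries, so these are descriptions with no test.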
